A study of Mus musculus with 6 samples.

Results

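ON cone bipolar nuclei are the nuclei of the bipolar cells (BC) that take their main input from cones and depolarize when light comes on. In snRNA-seq of rd10 mouse retina they were chosen by measured values, the UMI counts (unique molecular identifiers, 1 per captured RNA molecule) of a fixed set of genes. Nuclei had to carry more than 500 UMIs over at least 200 genes, with mitochondrial transcripts under 5% of the total. Among these, a nucleus was taken when it had at least 2 UMIs of Trpm1 and at least 1 UMI of Grm6, Gpr179, Isl1 or Scgn, no UMI of the rod bipolar genes Prkca and Car8, and at most 1 UMI of the OFF bipolar gene Grik1. Nuclei with any UMI of Gad1, Slc6a9, Slc17a6, Abca8a or Arr3, which mark amacrine cells, ganglion cells, Muller glia and cones, were left out. This gave 1337 nuclei out of 56205, or 2.38%. The retinas came from strain B6.CXB1-Pde6b-rd10/J, so every library carried the rd10 allele of Pde6b, a model in which rods degenerate and cones follow. Eyes were injected into the vitreous on postnatal day 18 with 20 ng of recombinant IL-27 protein (replicates 4, 5 and 10) or with saline (replicates 1, 2 and 6), and the retinas were collected on postnatal day 20. No wild-type or uninjected retina was analysed here, so the values describe ON cone BC of injected rd10 retina only. The labels number the libraries but do not say that each came from a separate animal, so p-values measure the spread between these libraries, which may be partly technical.

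ON BC answer light by lifting a brake. Glutamate released by photoreceptors in darkness binds the receptor mGluR6, coded by Grm6, whose G protein keeps the cation channel TRPM1 closed, and the channel opens when light lowers glutamate release. Nyctalopin (Nyx), GPR179 and the LRIT proteins hold this complex at the dendritic tip, and the RGS proteins speed its recovery. Rod bipolar cells use the same cascade but collect from rods and carry protein kinase C alpha (Prkca). OFF bipolar cells instead carry ionotropic glutamate receptors such as the kainate receptor GluK1 (Grik1). ON cone BC are known to comprise several types that differ in axon depth, channels and adhesion molecules, and they synapse directly onto ganglion cells.

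The 1337 nuclei were spread over all libraries. The saline libraries held 220, 208 and 274 of them (replicates 1, 2 and 6), and the IL-27 libraries held 175, 247 and 213 (replicates 4, 5 and 10). Summed per library they gave 787050 to 1171707 UMIs, and the nuclei had a median of 4149 UMIs each. For comparison, gates of the same kind gave 2310 rod bipolar nuclei (Prkca at 2 UMIs or more) and 817 OFF bipolar nuclei (Grik1 at 2 UMIs or more with Grm6, Prkca and Car8 at 0), with medians of 4192.5 and 3782 UMIs. Levels below are CPM, counts per 1000000 UMIs of the summed nuclei of a type in a library.

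The genes that chose the nuclei are given as a description, since the rule fixed them. Trpm1 had a median of 7 UMIs per nucleus. At its lower edge 96 members had exactly 2 UMIs, while 177 nuclei that met every other condition had 1 and stayed outside. A single UMI of Prkca kept out another 245 nuclei, a second UMI of Grik1 kept out 80, and 211 members had 1 UMI of Grik1. Markers of other cells removed 458 nuclei. Of the 4 alternative genes, Grm6 was seen in 80.7% of members, Isl1 in 78.5%, Gpr179 in 64.5% and Scgn, which codes for secretagogin, in 29.1%. The Trpm1 level was 1890 ± 78.1 CPM (SD, n = 6 libraries) in ON cone BC, against 5046 ± 110 CPM in rod bipolar nuclei and 83.2 ± 9.26 CPM in OFF bipolar nuclei. Grm6 stood at 481 ± 46.8 CPM in ON cone BC and at 476 ± 41.5 CPM in rod bipolar nuclei, with overlapping libraries, while the Trpm1 libraries of the 2 ON types lay far apart.

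The promoters of 3 of these genes are shown because they carry the identity of the nuclei: Trpm1 codes for the channel, Grm6 for the receptor, and Isl1 for a LIM homeodomain factor of ON bipolar cells. Each is the RefSeq window of GRCm38.p6 from 250 bases before to 50 bases after a transcript start, written 5′ to 3′ on the gene's strand. Capitals mark matches to TAATCC, the core bound by the homeodomain factors OTX2 and CRX, on either strand, and GGATTA is the same word read on the other strand. Trpm1 lies on the plus strand at chr7:64153585-64153884 (the first of its 2 windows), Grm6 on the plus strand at chr11:50850435-50850734, and Isl1 on the minus strand at chr13:116309639-116309938.
Trpm1: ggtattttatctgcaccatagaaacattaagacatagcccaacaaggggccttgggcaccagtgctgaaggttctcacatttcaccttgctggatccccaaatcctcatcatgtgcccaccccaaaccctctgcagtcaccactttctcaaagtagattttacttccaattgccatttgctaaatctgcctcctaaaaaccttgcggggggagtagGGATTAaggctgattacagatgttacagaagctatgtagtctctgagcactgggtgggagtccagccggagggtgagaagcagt
Grm6: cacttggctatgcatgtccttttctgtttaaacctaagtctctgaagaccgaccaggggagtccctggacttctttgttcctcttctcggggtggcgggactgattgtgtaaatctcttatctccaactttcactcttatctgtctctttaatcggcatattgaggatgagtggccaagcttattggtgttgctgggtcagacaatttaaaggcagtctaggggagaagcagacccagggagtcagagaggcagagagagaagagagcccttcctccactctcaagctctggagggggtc
Isl1: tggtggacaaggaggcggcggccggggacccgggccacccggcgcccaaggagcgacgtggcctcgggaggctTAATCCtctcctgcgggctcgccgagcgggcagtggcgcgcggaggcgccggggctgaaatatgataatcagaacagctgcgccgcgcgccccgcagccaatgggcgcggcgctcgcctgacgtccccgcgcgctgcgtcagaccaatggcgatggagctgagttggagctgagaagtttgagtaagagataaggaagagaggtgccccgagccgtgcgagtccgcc
The Trpm1 and Isl1 windows each held 1 match and the Grm6 window held none. The second Trpm1 window and the windows of Gpr179 and Scgn, which are not printed, also held none. Across all 32851 promoter windows of that length 7.06% held the word, so a match here is only a description of the letters. Otx2 itself, the homeobox gene required for bipolar cells, was measured at 363 to 398 CPM in ON cone BC (median 379).

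Labels and neighbouring cells were checked against markers. Across the 6 libraries, 8868 to 9885 nuclei were kept with medians of 2898 to 3959 UMIs, and 367 barcodes occurred in 2 or more libraries. Xist was high in saline replicate 2 and IL-27 replicate 5 and at or under 1.97 CPM in the others, so each group held 1 such library. In the ON cone BC, the 15 rod markers summed to 501 to 1320 CPM, the 12 Muller glia markers to 483 to 686 CPM, the 12 amacrine markers to 72.4 to 126 CPM and the 10 microglia markers to 128 to 171 CPM. Arr3, Abca8a, Gad1, Slc6a9 and Slc17a6 were at 0 because the rule set them there. A doublet caller marked 27 of the 1337 nuclei (2.02%), against 258 of the 2310 rod bipolar nuclei (11.2%).

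Clustering of the 1337 nuclei gave 9 subclusters of 405, 341, 282, 89, 82, 71, 36, 17 and 14 nuclei. They were formed from the same counts, so their genes are described without a test, and they keep their numbers because they were not matched to named types. Subcluster 1 (30.3% of the nuclei) was set apart by the SoxD transcription factor Sox6, at 3906 CPM against 49.5 CPM in the other ON cone BC, with the phosphatase gene Ptprt and the R-type calcium channel gene Cacna1e. It also carried Htr3a, a serotonin receptor subunit, at 37.9 CPM, and the calcium-binding protein gene Cabp5 at 464 CPM. Cabp5 was also at 350 CPM in subcluster 5 and at 290 CPM in subcluster 8. Subcluster 2 (25.5%) was led by Sox2ot, Arhgap18 and Neu2, and held most of the secretagogin signal: Scgn stood at 372 CPM against 41.9 CPM elsewhere, and Cnmd at 282 CPM against 27.8 CPM. Its Trpm1 level, 3055 CPM, was the highest of the 9. Subcluster 3 (21.1%) was led by Igfn1 at 696 CPM against 25.2 CPM, together with Sdk2, a sidekick adhesion molecule, and Gnat3, the taste transducin subunit. The homeobox gene Vsx1 was at 183 CPM in subcluster 3 and at 155 CPM in subcluster 2.

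The leading genes of the smaller subclusters were partly shared with others. Subcluster 4 (6.66%) was led by the protocadherin Pcdh11x and the homeobox gene Dmbx1, and it held the copine gene Cpne9 at 418 CPM against 5.92 CPM in the rest. Subcluster 5 (6.13%) stood out for Kirrel3, an immunoglobulin adhesion molecule, at 12209 CPM against 223 CPM, and for Cngb3, a subunit of the cone cyclic nucleotide channel. In this subcluster Chrm2, a muscarinic receptor, was at 142 CPM, while Grm6 was at 75.6 CPM and Trpm1 at 886 CPM, the lowest Trpm1 level of the 9. Subcluster 6 (5.31%) carried the Wnt secretion gene Wls at 163 CPM, a level that subcluster 8 also had, Thbs1, and the highest Grm6 level, 875 CPM. Subcluster 7 (2.69%) was led by Pdzph1 and Gucy2f, a photoreceptor guanylate cyclase, it also held Igfn1 at 283 CPM and Sema3d at 142 CPM, which lead subclusters 3 and 2, and 7 of its 36 nuclei were marked as doublets. Subcluster 8 (1.27%) was led by Hs3st2, the synaptic ligand gene Nxph1, the neurokinin receptor gene Tacr3, which the OFF bipolar gate also uses, and the cadherin Fat4. Its gate genes leaned away from the ON cone label: Grik1 was seen in 58.8% of its nuclei, against 8.16% to 21.7% in the other subclusters, Isl1 stood at 118 CPM against 478 CPM in the other ON cone BC, and Grm6 at 181 CPM against 489 CPM. Its nuclei met the rule and were kept. The type by treatment results are given with these nuclei, and again without subclusters 8 and 9. Subcluster 9 (1.05%) had a median of 7576.5 UMIs, 6 of its 14 nuclei were marked as doublets, and it was led by unnamed transcripts and by Gm11418, which also separated rod bipolar nuclei from ON cone BC below.

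**Figure D1:**
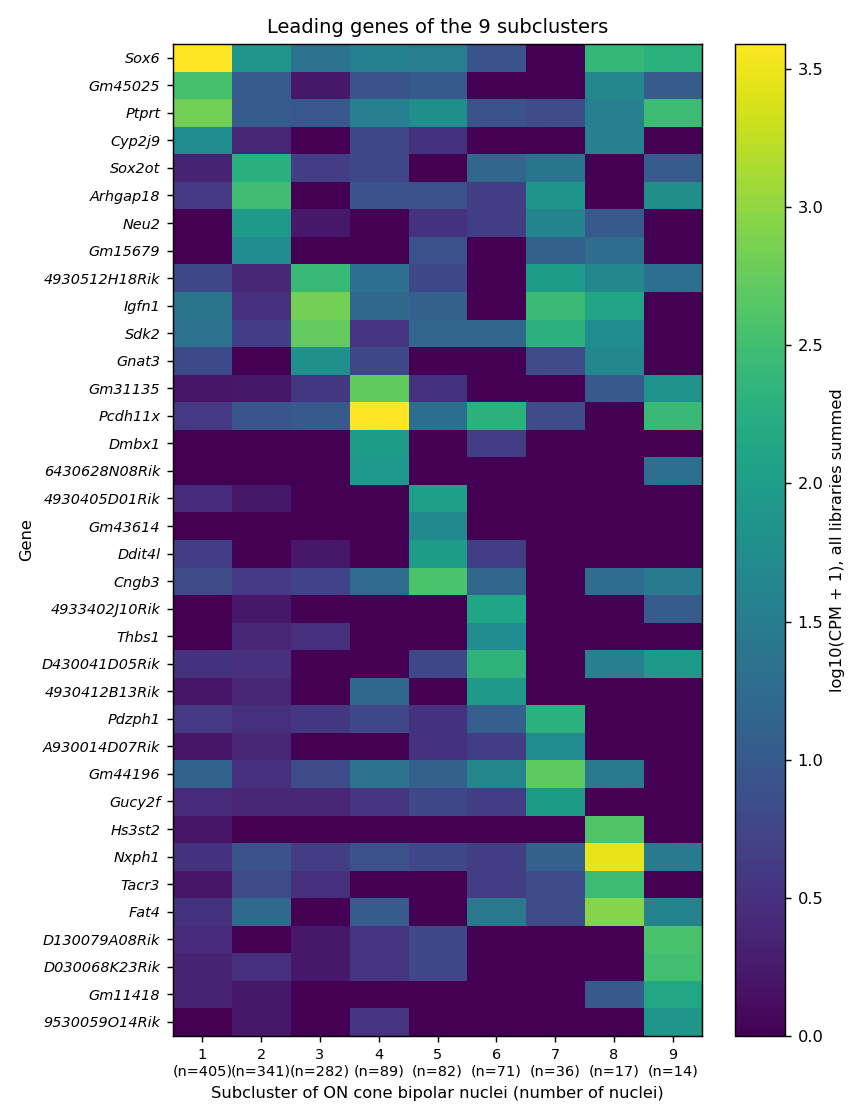
Heat map of log10(CPM + 1) for 4 leading genes of each subcluster (rows) in the 9 subclusters of ON cone bipolar nuclei (columns, all libraries summed, number of nuclei in brackets). Bright blocks on the diagonal show genes that were high in the subcluster they lead, for example Sox6 in subcluster 1 and Pcdh11x in subcluster 4.

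The larger subclusters were present in every library. Subcluster 1 made up 32.3%, 32.2% and 31.0% of the ON cone BC in saline replicates 1, 2 and 6 and 26.9%, 28.3% and 30.5% in IL-27 replicates 4, 5 and 10. Subcluster 2 made up 24.5%, 24.5% and 22.6% in saline and 22.9%, 29.6% and 28.6% in IL-27 libraries. Subcluster 3 ranged from 18.2% to 23.1% in saline and from 21.1% to 22.5% in IL-27 libraries. Subclusters 1, 8 and 9 had smaller shares in all 3 IL-27 libraries than in any saline library, and the other subclusters overlapped between groups. Subcluster 8 had 4, 3 and 6 nuclei in saline replicates 1, 2 and 6. In IL-27 replicates 4, 5 and 10 it had 2, 1 and 1. Subcluster 9 had 3, 3 and 4 against 1, 2 and 1. These shares were read from clusters made on the same nuclei and were not tested, but they touch several of the IL-27 results below.

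The comparison with rod bipolar nuclei asks what an ON BC that serves cones has that an ON BC that serves rods has not. It used edgeR's quasi-likelihood test on the summed counts of both types in each library, with the library as a block, leaving out every gene the gates use. Of 10303 genes, 2971 (28.8%) passed an adjusted p of 0.05 (Benjamini-Hochberg), 1588 of them higher (15.4%) and 1383 lower (13.4%) in ON cone BC. Among those, 205 were at least 4-fold higher and 164 at least 4-fold lower. DESeq2 called 2001 of the same 10303 genes. The fold changes in this and the following paragraphs are from the edgeR fit unless another tool is named.

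The 12 genes with the largest rise over rod bipolar nuclei included several adhesion and matrix genes, the transcription factor gene Sox6, and 4 transcripts with no role given. Il1rapl2, a synaptic adhesion receptor of the interleukin-1 receptor family, ran from 2484 to 3212 CPM in ON cone BC (median 2872) and from 89.7 to 272 CPM in rod bipolar nuclei (median 197), a log2FC of 3.90 (SE 0.10). Hs3st4, a heparan sulfate sulfotransferase, ran from 1808 to 2169 CPM (median 1929) against 120 to 195 CPM (median 142), a log2FC of 3.70 (SE 0.06). Reln, which codes for the secreted guidance protein reelin, ran from 1912 to 2282 CPM (median 2147) against 134 to 219 CPM (median 164), a log2FC of 3.65 (SE 0.07). For each of these genes the lowest ON cone library lay above the highest rod bipolar library, and the adjusted p of edgeR's test was at or below 8.1e-21. The classical cadherin Cdh9 also belonged here, with a log2FC of 3.62 (1288 to 1499 CPM against 86.9 to 144 CPM), as did Col8a1, a collagen, with 4.03, Palld, an actin scaffold, with 3.75, and Smoc2, a matrix protein, with 3.67. Sox6 rose by 3.83, although subcluster 1 held most of its signal. Palld was also uneven, at 1209 CPM in subcluster 3 against 81.9 CPM in the other ON cone BC. The remaining genes of the highest 12 were 1700041M19Rik, Gm45025, Gm48893 and Gm49127, for which no role is given. Gm45025 stood at 351 CPM in subcluster 1 against 6.51 CPM in the other ON cone BC, and Gm48893 at 200 CPM in subcluster 2 against 7.17 CPM.

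The genes most reduced against rod bipolar nuclei fell much further. Lrrtm4, a postsynaptic adhesion molecule, ran from 24.6 to 60.6 CPM in ON cone BC (median 42.4) and from 4963 to 5851 CPM in rod bipolar nuclei (median 5588), a log2FC of -6.97 (SE 0.10, adjusted p 5.1e-25 in edgeR). Cep112, a centrosomal protein gene, ran from 4.65 to 12.7 CPM (median 7.44) against 847 to 1192 CPM (median 1067), a log2FC of -7.06. The phosphatase gene Ptprr had a log2FC of -6.09, the BK channel beta subunit gene Kcnmb2 -5.54, the sorting receptor gene Sorcs3 -5.46 and Tmem196 -5.35. The long noncoding transcripts Gm11655 (log2FC -8.10), C330024D21Rik (-6.78), 5730419F03Rik (-5.86), Gm11418 (-5.48) and Gm20319 (-5.37) moved the same way, and Gm28807 was down to 2 UMIs over all 1337 ON cone BC. Rod transcripts also differed between the gates: 13 of the 15 rod markers tested were lower in ON cone BC and none higher, with a median log2FC of -0.81. The rod bipolar nuclei held 978 to 2066 CPM of these markers, and the part of rod RNA in the other differences was not tested.

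Within the mGluR6 cascade, 11 members outside the gates were tested against rod bipolar nuclei, of which 1 was higher and 4 lower, with a median log2FC of -0.19 against 0.0004 over all genes tested. Nyx, which codes for nyctalopin, was the higher member, at 71.9 to 107 CPM (median 87.7) against 46.0 to 67.4 CPM (median 55.5), a log2FC of 0.59 (SE 0.09, adjusted p 4.9e-06 in edgeR). Rgs7, the catalytic regulator that ends the G protein signal, ran from 754 to 934 CPM (median 812) against 2931 to 3563 CPM (median 3237), a log2FC of -1.999. Pcp2, a modulator of Go signaling, ran from 149 to 172 CPM (median 157) against 639 to 875 CPM (median 739), a log2FC of -2.27. The ranges of both genes were far apart between the types, whereas the G protein subunits differed less: Gnao1, the alpha subunit, had a log2FC of -0.66, and Gnb3, the beta subunit, -0.23. Gng13, Rgs11 and Lrit1 had log2FC values of -0.19, -0.15 and -0.12, none of which passed the test.

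Of 20 transcription factors of bipolar cells tested, 10 were higher and 5 lower (median log2FC 0.22). Over all genes tested 15.4% were higher and 13.4% lower, and the counts of this and the following lists stand beside those shares. Vsx1, a homeobox gene of cone bipolar types, ran from 63.5 to 98.8 CPM (median 91.9) against 4.28 to 12.0 CPM (median 8.18), a log2FC of 3.35. Sox5 rose by 3.26 on the log2 scale, Nfia by 2.92, the LIM homeobox gene Lhx3 by 2.61 and the TALE homeobox gene Meis2 by 2.25. On the other side, Nfib had a log2FC of -1.44, Bhlhe23, a factor required for rod bipolar cells, -1.47, and the repressor gene Prdm8 -1.55. The 2 nuclear factor I genes of this list therefore moved in opposite directions, Nfia up and Nfib down.

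Receptors serve the inputs that ON cone BC receive from photoreceptors and amacrine cells. Of 16 glutamate receptor genes tested, 6 were higher and 5 lower (median log2FC -0.05): the AMPA receptor subunit Gria2 ran from 1155 to 1304 CPM (median 1238) against 220 to 279 CPM (median 249), a log2FC of 2.29, and the NMDA receptor subunit Grin3a had a log2FC of 2.41 and Grin1 1.43. The AMPA subunit Gria1 was lower, with -0.81, and so was the kainate subunit Grik2, with -1.64. For the GABA and glycine receptors, 10 of 17 were higher and 3 lower (median log2FC 0.37). Gabrr2, a subunit of the slow GABA-C receptor of BC terminals, ran from 837 to 965 CPM (median 891) against 391 to 433 CPM (median 402), a log2FC of 1.116. Its relatives Gabrr1 (-0.62) and Gabrr3 (-0.74) were lower. Gabrb2 (1.86) and the GABA-B subunit Gabbr2 (1.66) were higher, and the glycine receptor subunit Glra1 (-2.44) was the most reduced.

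Ion channel genes moved both ways. Of 21 sodium and calcium channel genes, 12 were higher and 6 lower (median log2FC 0.35), with the R-type channel gene Cacna1e at 3.11, the T-type channel genes Cacna1g at 2.07 and Cacna1h at 1.89, and the beta subunit Cacnb4 at 2.28. The Cacna1e signal sat mainly in subcluster 1, at 292 CPM against 13.0 CPM in the other ON cone BC. The third T-type gene, Cacna1i, was lower, at -1.85, as were Scn3b at -2.38 and Cacna2d3 at -1.35. Of 26 potassium and HCN channel genes, 12 were higher and 8 lower (median log2FC 0.21). Kcnb2, a delayed rectifier, ran from 3596 to 4202 CPM (median 4001) against 770 to 881 CPM (median 837), a log2FC of 2.24. The A-type channel gene Kcnd2 had a log2FC of 3.05, the beta subunit Kcnab1 2.79 and the silent subunit Kcng4 2.68, while the sodium-activated channel gene Kcnt2 (-4.53) and Kcnh5 (-3.43) were far below their rod bipolar levels.

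Of 28 genes of the ribbon synapse and glutamate release, 10 were higher and 7 lower (median log2FC 0.14): Unc13c, a vesicle priming gene, had 2.20, Rims3 1.63 and Cplx4, a ribbon complexin, 1.25, while Syt9 had -1.65, Cplx2 -1.04 and Unc13b -0.91. Gap junction genes had 3 members with enough counts, of which 2 were higher and 1 lower. Gjd2, which codes for connexin 36, the channel of the electrical synapse with AII amacrine cells, ran from 47.0 to 108 CPM (median 76.8) against 11.5 to 17.5 CPM (median 15.8), a log2FC of 2.32, and the junction scaffold gene Tjp1 had 1.57. Of 58 adhesion and wiring genes 33 were higher and 17 lower (median log2FC 0.40).

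Against OFF bipolar nuclei the question is what the ON pathway carries within cone-driven BC. Of 8270 genes, 1961 (23.7%) passed an adjusted p of 0.05 in the edgeR fit, 984 higher (11.9%) and 977 lower (11.8%) in ON cone BC. At least 4-fold differences were seen for 143 higher and 181 lower genes. DESeq2 called 1288, of which 636 were higher and 652 lower.

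In the mGluR6 cascade 8 of 11 tested members were higher and none lower, at a median log2FC of 1.39 against -0.02 over all genes. Gnb3 ran from 656 to 794 CPM in ON cone BC (median 739) and from 101 to 124 CPM in OFF bipolar nuclei (median 109), a log2FC of 2.62 (SE 0.08, adjusted p 1.5e-19 in edgeR). Nyx ran from 71.9 to 107 CPM (median 87.7) against 1.77 to 9.404 CPM (median 6.72), a log2FC of 3.62. Gnao1 had a log2FC of 1.98, Pcp2 1.67, Gng13 and Gnb5 1.39 each, Rgs11 1.16 and the chaperone Ric8b 0.45. The members that did not pass were Rgs7, Rgs9bp and Lrit1, with log2FC values of 0.03, 0.43 and -0.02. The Rgs7 ranges overlapped, at 754 to 934 CPM in ON cone BC and 644 to 822 CPM in OFF bipolar nuclei. The OFF nuclei were required to lack Grm6 and to have at most 1 UMI of Trpm1, so these cascade values are not independent of the gates.

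The largest single-gene gains over OFF bipolar nuclei partly repeated those over rod bipolar nuclei. Hs3st4 ran from 1808 to 2169 CPM against 3.43 to 40.8 CPM (median 6.76), a log2FC of 6.9999, and Reln from 1912 to 2282 CPM against 26.5 to 63.0 CPM (median 31.2), a log2FC of 5.70. Smoc2 had 502 UMIs in ON cone BC and 0 in OFF bipolar nuclei, at least 94.8-fold higher when a floor of 3 counts over the 6 OFF sums is used. Skor2, a corepressor, had 382 UMIs against 1. St18, a zinc finger factor, ran from 481 to 654 CPM (median 567) against 3.54 to 37.5 CPM (median 9.61), a log2FC of 5.44, and stood at 505 to 678 CPM in rod bipolar nuclei (median 602), where the log2FC was -0.09. The dopamine receptor gene Drd2 had a log2FC of 5.24 over OFF bipolar nuclei and of -0.54 against rod bipolar nuclei. Igfn1 (5.67), the semaphorin gene Sema3d (5.28), Tcerg1l (4.93), Gm12660 (7.998), 1700041M19Rik (5.71) and Gm10475 (5.52) completed the list. Igfn1 and Sema3d were leading genes of subclusters 3 and 2, so their gains were not even over the ON cone BC.

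Of the genes that OFF bipolar nuclei held far above ON cone BC, several code for receptors and adhesion molecules. Erbb4, a neuregulin receptor, ran from 9.39 to 35.6 CPM in ON cone BC (median 24.1) and from 1765 to 2998 CPM in OFF bipolar nuclei (median 2073), a log2FC of -6.68 (SE 0.11). Col11a1 had a log2FC of -8.02, Tafa4 -7.48, the laminin gene Lama2 -6.86, the cation channel gene Trpc7 -6.30, the adhesion gene Dscam -5.99, Nphs1 -5.86, Lrrtm3 -5.81, Fer1l6 -5.74 and the catenin gene Ctnna3 -5.58. Gm11266 and Gm32509 had -6.87 and -6.33. Col11a1 rests on 5 UMIs in ON cone BC, and Lama2 on 18.

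**Figure D2:**
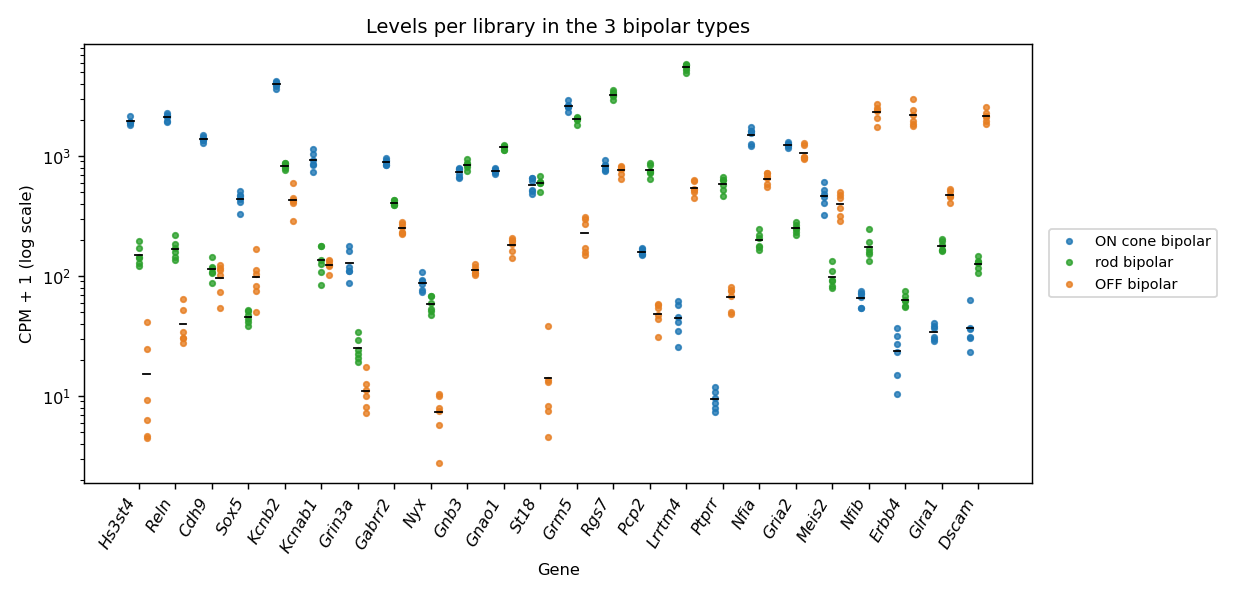
CPM + 1 on a log axis for 24 genes in ON cone, rod and OFF bipolar nuclei, 1 point per library (6 per type) with a black bar at the mean. Hs3st4, Reln and Cdh9 were highest in ON cone nuclei, Gnb3, Gnao1 and St18 in both ON types, Lrrtm4 in rod bipolar nuclei, and Erbb4 and Dscam in OFF bipolar nuclei.

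Among transcription factors, 7 of 17 tested were higher than in OFF bipolar nuclei and 4 lower. Beside St18, Sox5 had a log2FC of 2.06 and Nfia 1.11. Fezf2, which ran from 51.5 to 65.8 CPM in OFF bipolar nuclei and had 8 UMIs in all ON cone BC, had -5.43, and Lhx4 had -1.52. Nfib ran from 53.1 to 73.4 CPM in ON cone BC (median 68.1), from 133 to 243 CPM in rod bipolar nuclei (median 163) and from 1744 to 2734 CPM in OFF bipolar nuclei (median 2407), with no overlap between any of the 3 types. Nfia had the reverse order between the cone types, at 1219 to 1739 CPM in ON cone BC (median 1593) and 546 to 716 CPM in OFF bipolar nuclei (median 666).

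Receptor and channel genes were read against 11.9% higher and 11.8% lower over all genes. For GABA and glycine receptors 2 of 15 were higher and 9 lower in ON cone BC (median log2FC -0.32), for sodium and calcium channels 2 of 19 and 10 (median -0.36), and for potassium and HCN channels 8 of 26 and 14 (median -0.63), against -0.02 over all genes. Gabrr2 was again the gain among the rho subunits, with 1.75, and Gabrr3 a loss, with -2.20. Glra1 ran from 27.8 to 39.4 CPM in ON cone BC (median 33.0) against 403 to 532 CPM in OFF bipolar nuclei (median 465), a log2FC of -3.92, and at 161 to 202 CPM the rod bipolar nuclei lay between them. The calcium channel accessory genes Cacna2d2 (-3.69) and Cacna2d1 (-2.78) and the potassium channel genes Kcnh8 (-5.49), Kcnip4 (-3.89) and Hcn3 (-3.31) were lower. Kcnb2 (3.14), Kcnab1 (2.82), and Cacna1e (3.31) were higher, and these 3 were also above their rod bipolar levels. Of these, Cacna1e sat mainly in subcluster 1, as given above.

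Of 15 glutamate receptor genes 4 were higher and 6 lower. The metabotropic receptor gene Grm5 ran from 2346 to 2902 CPM in ON cone BC (median 2597) against 147 to 312 CPM in OFF bipolar nuclei (median 220), a log2FC of 3.48, and the NMDA subunit gene Grin3a had 3.59. The kainate subunit Grik2 (-2.95), the NMDA subunit Grin2b (-3.68) and the AMPA subunit Gria3 (-2.26) were lower, whereas Gria2 had a log2FC of 0.13 (SE 0.07) that did not pass the test. Of 4 gap junction genes, Tjp1 (1.77) and Gjd2 (1.34) were higher and Panx1 (-3.92) lower. Adhesion and wiring genes had 19 of 55 higher and 31 lower (median log2FC -0.37), with Cntn5 at 4.92, Cdh9 at 3.78, Robo2 at 3.14 and Fstl4 at 3.08 on the ON side. Ribbon synapse genes had 4 of 26 higher and 7 lower.

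Whether IL-27 altered the number of ON cone BC was read from their share of all kept nuclei. The share was 2.23%, 2.35% and 2.91% in saline replicates 1, 2 and 6 and 1.86%, 2.68% and 2.27% in IL-27 replicates 4, 5 and 10. Exact binomial 95% intervals ran from 1.94% to 2.54% for saline replicate 1 and from 1.60% to 2.16% for IL-27 replicate 4, covering counting error only. The means were 2.49% ± 0.364 (SD, n = 3) and 2.27% ± 0.407 (n = 3), a difference of -0.225 percentage points (two-sided exact permutation test, p = 0.5, where 3 against 3 libraries cannot go below 0.1). The ratio of ON cone to rod bipolar nuclei was 0.533, 0.583 and 0.715 in saline and 0.442, 0.558 and 0.670 in IL-27 libraries, a difference of -0.0538 (exact permutation p = 0.5). The groups overlapped in both measures. When every nucleus was thinned to 1500 UMIs, leaving out 1546 to 2659 shallower nuclei per library, the differences were 0.0772 percentage points and 0.0180, both of the opposite sign (exact permutation p = 0.8).

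**Figure D3:**
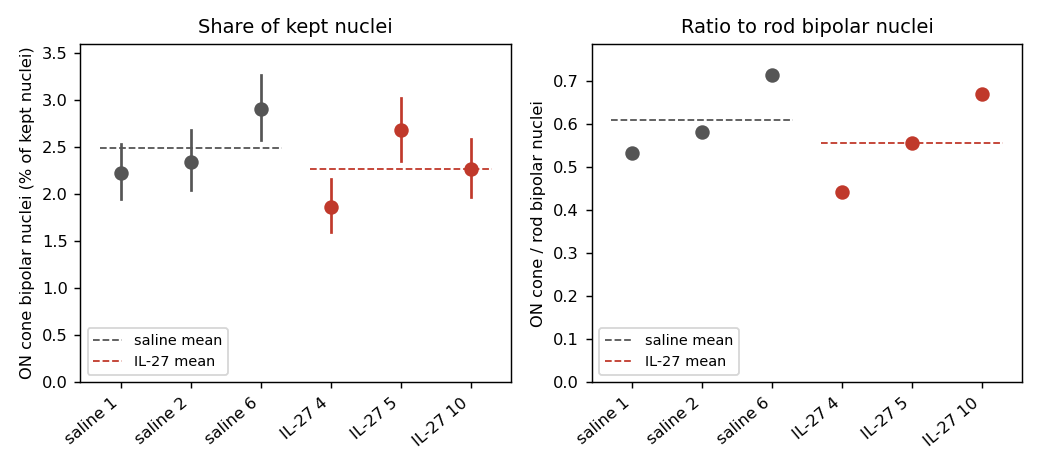
Left, ON cone bipolar nuclei as a percentage of kept nuclei in each library, with exact binomial 95% intervals. Right, the ratio of ON cone to rod bipolar nuclei, with dashed lines at the mean of the 3 libraries of each group in both plots; saline libraries (grey, 2.23% to 2.91%) and IL-27 libraries (red, 1.86% to 2.68%) overlapped.

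The effect of IL-27 on transcripts was tested on the summed ON cone BC of the 3 IL-27 and 3 saline libraries. Of 9593 genes, none passed an adjusted p of 0.05 in edgeR's quasi-likelihood test (percentage called 0), 378 had an unadjusted p below 0.05 (3.94%), and DESeq2 also called 0, with 129 at an unadjusted p below 0.05. The libraries of the 2 groups did not overlap for 896 genes (9.34%), with IL-27 wholly above saline for 366 (3.82%) and wholly below for 530 (5.52%). The 10 genes described next are those of smallest unadjusted p without overlap between groups, 5 in each direction, and none of them passed the test.

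Of the 5 with higher values in IL-27 libraries, Ddx60, an interferon-inducible RNA helicase, had the smallest p. It stood at 45.3, 36.4 and 32.4 CPM in saline and at 59.7, 86.4 and 80.2 CPM in IL-27 libraries, a log2FC of 1.02 (SE 0.19, adjusted p 0.39 in edgeR). Ntng2, a netrin-G adhesion molecule, had 54.2, 61.4 and 57.2 CPM against 86.4, 87.3 and 88.4 CPM, a log2FC of 0.61 (adjusted p 0.61 in edgeR), with very little spread inside either group. Wwox, an oxidoreductase gene, had 671, 657 and 720 CPM against 807, 868 and 944 CPM, a log2FC of 0.37. The transcripts Gm32884 and 4930440I19Rik had 0.79 and 1.17.

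Of the 5 with lower values, Sgcz, a sarcoglycan gene, had 304, 310 and 377 CPM in saline and 215, 245 and 200 CPM in IL-27 libraries, a log2FC of -0.57 (SE 0.12, adjusted p 0.39 in edgeR). Ubl3, a membrane-anchored ubiquitin-like protein gene, had 121, 104 and 108 CPM against 69.9, 76.5 and 64.0 CPM, a log2FC of -0.64. The UMIs lay in 272 nuclei for Sgcz and in 399 for Ubl3. Sgcz was the more concentrated, with 94 UMIs in its highest nucleus and 17.0% in its 6 highest. For Ubl3 these values were 5 UMIs and 4.70%. The other lower values sat in few nuclei. Nxph1, a neurexin ligand gene, had 98.6, 64.2 and 101 CPM against 55.9, 5.40 and 26.7 CPM (log2FC -1.67). Of its UMIs 91.6% were in subcluster 8, where 41.2% of the 17 nuclei held any, and 86.3% were in its 6 highest nuclei. Cngb3 (log2FC -1.35) had 81.3% of its UMIs in subcluster 5, and Frmpd4 (log2FC -2.08) had 53.8% in its 6 highest nuclei. For Nxph1 a lower level per library and fewer nuclei of subcluster 8 cannot be told apart. Subcluster 5 made up 8.18%, 5.77% and 6.57% of the ON cone BC in saline replicates 1, 2 and 6. Its share was 8.57%, 4.45% and 3.76% in IL-27 replicates 4, 5 and 10, so the groups overlapped. Of the 132 Frmpd4 UMIs, 39 were in the highest nucleus and 31.8% in subclusters 8 and 9. The causes of these lower values were not tested.

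**Figure D4:**
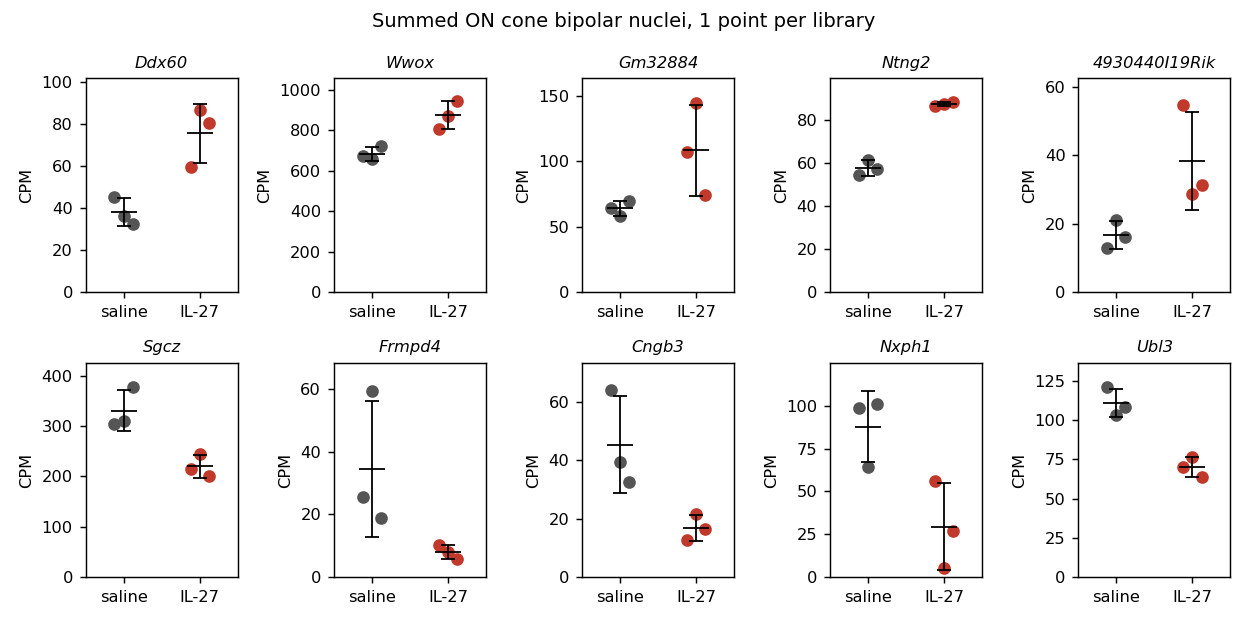
CPM in summed ON cone bipolar nuclei for the 10 genes without overlap between groups and with the smallest unadjusted p, 1 point per library, with the mean and SD of 3 libraries as bars. The upper row shows the 5 genes with higher values in IL-27 libraries and the lower row the 5 with lower values; none passed the adjusted threshold.

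IL-27 signals through a receptor of IL27RA and gp130 (Il6st) that activates STAT factors, which can drive interferon-type genes. Il27ra had 0 UMIs in the ON cone BC of all 6 libraries, and a count of 0 allows up to 2.56 to 3.81 CPM per library (3 counts). The rod bipolar and OFF bipolar nuclei also had 0 UMIs of Il27ra in every library. Il6st stood at 30.6, 38.4 and 44.4 CPM in saline and at 30.5, 37.8 and 33.7 CPM in IL-27 libraries, a log2FC of -0.13, and Stat3 had a log2FC of 0.04, neither past the test. These list members, and those named in the paragraphs on the interferon response and on the other lists, did not pass the test and were chosen after their values were seen.

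The interferon response list had 25 of its 52 members tested, of which 22 had a positive log2FC, with a median of 0.41 against -0.0032 over all 9593 genes, of which 49.5% were positive. None passed the adjusted threshold, 3 had an unadjusted p below 0.05 (among them Gbp6 with 0.82 and Parp9 with 0.59), and for none were the groups free of overlap. Ddx60 is not on this list. The shift rested on 1 library. The listed genes summed to 1160, 885 and 711 CPM under saline and to 737, 1083 and 1698 CPM under IL-27, and 20 of the 25 genes were highest in IL-27 replicate 10. Without that library the median was 0.03 and 13 of 25 genes were positive, while leaving out any other library gave medians of 0.27 to 0.63. Replicate 10 was also the library with the lowest median of UMIs per kept nucleus, 2898, and with the highest level of rod markers in ON cone BC, 1320 CPM. With the rod-marker share as a covariate the median was 0.35, but that share was highest in the same library. Depth, rod RNA and other traits of replicate 10 cannot be told apart here, and the cause of the shift was not tested. Rod bipolar nuclei held 973, 785 and 543 CPM of the list in saline and 593, 1411 and 1304 CPM in IL-27 libraries, and OFF bipolar nuclei 1097, 983 and 670 CPM against 837, 1340 and 1739 CPM, so within IL-27 libraries replicate 4 was the lowest in every type.

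**Figure D5:**
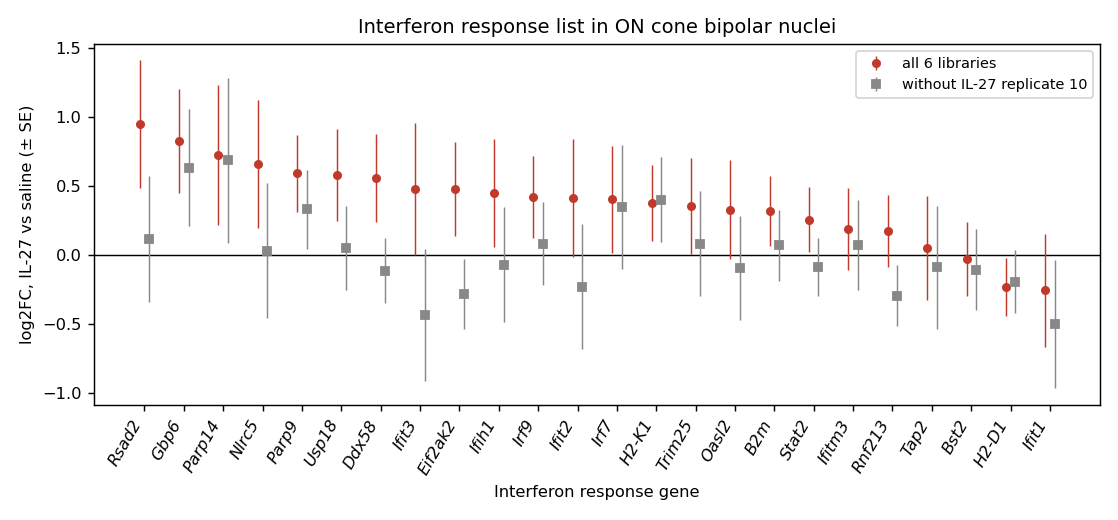
log2FC (IL-27 against saline, ± SE) in ON cone bipolar nuclei for 24 of the 25 tested genes of the interferon response list, with all 6 libraries (red circles) and without IL-27 replicate 10 (grey squares). The median over all 25 fell from 0.41 to 0.03 when that library was left out.

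In the mGluR6 cascade, 7 of 11 tested members had a positive log2FC for IL-27 and 4 a negative one, from -0.65 (Rgs9bp) to 0.22 (Gnb3), with a median of 0.11 and none past the test. Gnb3 had 705, 671 and 656 CPM in saline and 774, 780 and 794 CPM in IL-27 libraries, a log2FC of 0.22 (unadjusted p 0.016 and adjusted p 1 in edgeR), and Rgs7 had 788, 771 and 754 CPM against 934, 843 and 837 CPM, a log2FC of 0.19 (unadjusted p 0.04). Of other lists, the 20 transcription factors had 14 negative values (median -0.12), the 16 heat shock genes 11 (median -0.15), the 73 nuclear genes of oxidative phosphorylation 53 (median -0.09) and the 79 cytosolic ribosomal protein genes 52 (median -0.08), with no gene called in any of them. Over all 9593 genes tested, 4849 had negative values. The whole oxidative phosphorylation list summed to 3032, 2734 and 3209 CPM in saline and to 2756, 2265 and 3465 CPM in IL-27 libraries. The whole ribosomal protein list summed to 4778, 4046 and 4813 CPM against 3819, 3613 and 5491 CPM. For both lists IL-27 replicate 10 was the highest library, and the groups overlapped. All 4 immediate early genes tested had negative values (median -0.41), among them Egr1, an activity-regulated zinc finger gene, at 56.2, 27.8 and 47.8 CPM in saline against 40.7, 9.90 and 5.81 CPM in IL-27 libraries (log2FC -1.29, adjusted p 1 in edgeR).

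Whether ON cone BC responded differently from the other bipolar types was tested with a type by treatment term. Against rod bipolar nuclei, 4 of 11240 genes passed an adjusted p of 0.05 in edgeR (0.0356%), all with a lower IL-27 effect in ON cone BC, and DESeq2 called 0, with 57 at an unadjusted p below 0.05. In edgeR 593 genes (5.28%) had an unadjusted p below 0.05, 275 of them (2.45%) with the higher effect in ON cone BC. For each of the 4 called genes the mean was lower in the IL-27 libraries of ON cone BC and higher in those of rod bipolar nuclei, although the ON cone values of Slit2 overlapped between groups. Sgcz (GRCm38 in GENCODE, minus strand, chr8:37522298-38661508) had the largest difference, -2.01 on the log2 scale (SE 0.29, adjusted p 0.0037 in edgeR). Its rod bipolar levels were 21.9, 35.6 and 31.6 CPM in saline and 150, 48.9 and 58.2 CPM in IL-27 libraries, so replicate 4 was far above the rest. Without marked doublets the Sgcz difference was -1.19 and no longer passed (adjusted p 0.46 in edgeR).

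The other 3 genes code for neuronal surface or signaling proteins. Slit2, a secreted guidance protein (plus strand, chr5:47983138-48307733), stood at 298, 448 and 349 CPM in saline and at 241, 339 and 200 CPM in IL-27 libraries of ON cone BC, against 221, 283 and 259 CPM and 340, 328 and 291 CPM in rod bipolar nuclei, a difference of -0.79 (SE 0.13, adjusted p 0.022 in edgeR). Kctd8, an auxiliary subunit of GABA-B receptors, had 124, 134 and 147 CPM and 112, 116 and 90.7 CPM in ON cone BC against 80.2, 88.7 and 81.3 CPM and 112, 139 and 99.8 CPM, a difference of -0.83 (adjusted p 0.039 in edgeR). Ncam2, a neural cell adhesion molecule, had 62.1, 63.3 and 72.5 CPM and 52.1, 48.6 and 49.999 CPM against 49.2, 31.6 and 45.1 CPM and 68.5, 82.4 and 65.8 CPM, a difference of -1.18 (adjusted p 0.039 in edgeR). Within ON cone BC, subclusters 8 and 9 held 47.8% of the Slit2 UMIs, 59.1% of those of Ncam2, 16.6% of those of Kctd8 and 8.07% of those of Sgcz. Without their 31 nuclei (2.32%), an alternative chosen after seeing the data, 1 gene was called, Sgcz with -1.97 (adjusted p 0.0007 in edgeR), while Slit2 had -0.09, Ncam2 -0.44 and Kctd8 -0.84, none of which passed.

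Against OFF bipolar nuclei, 1 of 9315 genes passed (0.0107%), namely Nxph1 (plus strand, chr6:8948431-9249032), with a difference of -2.09 (SE 0.26, adjusted p 0.0005 in edgeR), and DESeq2 also called 1 gene. An unadjusted p below 0.05 was seen in edgeR for 458 genes (4.92%), 204 of them (2.19%) with the higher effect in ON cone BC. Its OFF bipolar levels were 582, 378 and 652 CPM in saline and 872, 252 and 1068 CPM in IL-27 libraries. In both types the level was lowest in IL-27 replicate 5. Without subclusters 8 and 9 the difference was -0.05 (adjusted p 1 in edgeR) and no gene passed. Subcluster 8 held 91.6% of the Nxph1 UMIs of ON cone BC, so leaving it out took most of the signal away. Its part in the call was not tested further.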

How the data were processed

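snRNA-seq libraries of frozen rd10 retinas (10x Genomics Chromium) were deposited as 1 gene by barcode matrix of UMI counts per library, which the authors made with Cell Ranger (9.0.1 in the submitters' processing notes, 8.0.1 in the matrix headers) and analysed with Seurat 5.2.1. The genome build was not given in the sources used here. The gene IDs were paired with positions of GENCODE on GRCm38, and promoter windows came from RefSeq GRCm38.p6. The 6 libraries held 8968 to 9965 barcodes and 36678332 to 48260748 UMIs in total.

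From these counts, nuclei were kept at more than 500 UMIs, at least 200 genes and less than 5% mitochondrial UMIs, and the gates given in the report were applied. The members and the gene lists were chosen with earlier results of these data known. Doublets were marked by library with simulated doublets and kept in the main result. UMIs were summed per library and type, and genes that passed edgeR's expression filter at 10 counts were tested with edgeR 4.0.16 (quasi-likelihood, TMM, R 4.3.3) with Benjamini-Hochberg adjustment over all genes tested. Treatment was the only term within ON cone nuclei. Type comparisons and type by treatment terms had the library as a block, so each nucleus type was set against another of the same library. DESeq2 1.42.0 was the alternative tool. Subclusters came from Leiden clustering of the 1337 nuclei (scanpy 1.11.5), and shares were compared by two-sided exact permutation tests (scipy 1.17.1).

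Genes were named by rule. For IL-27 these were the 5 genes per direction with the smallest unadjusted p and no overlap of groups, since none passed. For type comparisons they were the 12 largest folds per direction past the threshold, changed alike in all 6 libraries and at 50 CPM or more. For type by treatment terms every called gene was named, for subclusters genes from the 6 leading by fold, for lists the members past the threshold with the largest folds, and all gate genes. Some list members are counted but not reported here by name. List members named without passing were chosen after their values were seen. The sequencing depth was 426593 to 2003193 UMIs per library and type, so a count of 0 allows 1.50 to 7.03 CPM at 3 counts, counting error only.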

Additional observations from a re-analysis of the deposited data

Results flagged for a closer look

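The IL-27 effect on 4 genes differed between ON cone and rod bipolar nuclei by the type by treatment term of edgeR (quasi-likelihood, Benjamini-Hochberg). The differences were -2.01 on the log2 scale for Sgcz (SE 0.29, adjusted p 0.0037), -0.79 for Slit2 (SE 0.13, adjusted p 0.022), -0.83 for Kctd8 (SE 0.15, adjusted p 0.039) and -1.18 for Ncam2 (SE 0.22, adjusted p 0.039). In all 3 rod bipolar libraries treated with IL-27, Sgcz, Slit2, Kctd8 and Ncam2 lay above all 3 saline libraries, and in ON cone nuclei Sgcz, Kctd8 and Ncam2 lay below. The ON cone values of Slit2 overlapped between the groups. Subclusters 8 and 9 held 47.8% of the Slit2 UMIs and 59.1% of the Ncam2 UMIs of ON cone nuclei.

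The IL-27 effect on Nxph1 differed between ON cone and OFF bipolar nuclei by -2.09 on the log2 scale (SE 0.26, adjusted p 0.0005 in edgeR). The ON cone libraries of the 2 groups did not overlap, while the OFF bipolar libraries did. Of the 358 Nxph1 UMIs in ON cone nuclei, 91.6% lay in subcluster 8 and 86.3% in the 6 highest nuclei. The share of subcluster 8 was 1.82%, 1.44% and 2.19% in saline and 1.14%, 0.405% and 0.469% in IL-27 libraries, and its part in the result beyond the refit without subclusters 8 and 9 was not tested.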

How the results depend on the processing

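No paired analysis was possible because the saline libraries (replicates 1, 2 and 6) and the IL-27 libraries (replicates 4, 5 and 10) share no replicate number. In ON cone nuclei, the count of genes called for IL-27 against saline was 0 in the report, 16 with no filter on low counts (7 higher and 9 lower), 1 with Trpm1 at 3 UMIs or more, 2 with Xist as a covariate, 2 with the rod-marker share as a covariate, and 0 to 5 when 1 library was left out, the 5 without IL-27 replicate 4 and 2 without IL-27 replicate 10. Against rod bipolar nuclei the count was 2705 to 2853 without 1 library, and DESeq2's 2001 was its lowest value under other settings. Against OFF bipolar nuclei it was 1288 with DESeq2 and 1787 to 1890 without 1 library.

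The count of genes whose IL-27 effect differed from that in rod bipolar nuclei was 4 in the report, 0 with DESeq2, 35 with no filter (11 higher and 24 lower), 2 without marked doublets, 1 with nuclei close to the median total only, 1 with Trpm1 at 3 UMIs or more, 1 without subclusters 8 and 9 (chosen after seeing the data), and 1 to 7 without 1 library (7 without saline replicate 1, 2 without saline replicate 6, and 1 without saline replicate 2 or IL-27 replicate 10). Against OFF bipolar nuclei it was 1 in the report, 17 with no filter (4 higher and 13 lower), 0 without subclusters 8 and 9, and 1 to 6 without 1 library (6 without IL-27 replicate 10, and 2 without saline replicate 1 or IL-27 replicate 5). The cause of these moves was not tested. No filter adds genes with few counts, but genes already tested in the report passed there too. For IL-27 against saline in ON cone nuclei, Ddx60 (adjusted p 0.0016) and Sgcz (adjusted p 0.015) passed in edgeR under that setting.

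The difference in the share of ON cone nuclei turned to 0.0772 percentage points, and that in the ratio to rod bipolar nuclei to 0.0180, in nuclei thinned to 1500 UMIs. Without 1 library they ran from -0.429 to -0.0177 and from -0.111 to 0.00344, the last without IL-27 replicate 4. The cause was not tested. All 24 genes named against rod bipolar nuclei and all 24 against OFF bipolar nuclei kept direction and side of the threshold in every setting that gave a value (360 and 358 values). Of the 4 genes with a different IL-27 effect from rod bipolar nuclei, 31 of 60 values no longer passed, and for Nxph1 1 of 15. Of the 10 genes named for IL-27, 15 of 176 values passed. The depth of 787050 to 1171707 UMIs per library and 3 libraries a group limit these counts, and no detection limit was computed.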

Other observations

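Of 20 tested genes listed for types of ON cone bipolar cells, 13 were higher and 3 lower than in rod bipolar nuclei in edgeR's fit, with a median log2FC of 0.999. Htr3a, a serotonin receptor subunit, had a log2FC of 2.82, Kirrel3, an adhesion molecule, 2.56, Cpne9 1.91, Cck, a neuropeptide, 1.84, and Syt2, a fast calcium sensor of release, 0.95. These genes were uneven over the ON cone nuclei. Htr3a stood at 37.9 CPM in subcluster 1 against 2.09 CPM in the other ON cone nuclei. For Kirrel3 the levels were 12209 against 223 CPM in subcluster 5, and for Cpne9 418 against 5.92 CPM in subcluster 4. In subcluster 2, Cck stood at 50.5 against 4.13 CPM and Syt2 at 44.0 against 7.82 CPM. Among the 3 lower genes were Vstm2b (-4.27), which the rod bipolar list also holds, and Slitrk5 (-1.73). Of 9 genes listed for rod bipolar cells, 7 were lower in ON cone nuclei, among them the homeobox gene Sebox (-4.20), Strip2 (-3.69) and Gramd1b (-3.00), and 1 was higher, the calcium-activated chloride channel gene Ano2 (1.85). Ano2 was also higher than in OFF bipolar nuclei (3.66). The list for OFF bipolar cells had 12 of 15 members lower than in OFF bipolar nuclei and 1 higher, the substance P receptor gene Tacr1 (2.90), which was also above its rod bipolar level (3.28). The gates separated the types by Prkca, Car8 and Grik1. Counts for the rod bipolar and OFF bipolar lists are therefore not independent of the gates.

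Over all genes tested, 28.8% were called against rod bipolar and 23.7% against OFF bipolar nuclei. Of 16 genes of the IL-27 receptor and JAK-STAT list, 2 were higher and 6 lower than in rod bipolar nuclei, and 3 higher and 6 lower than in OFF bipolar nuclei. Socs2, a feedback inhibitor of cytokine signaling, had a log2FC of 2.19 over OFF bipolar nuclei and of -0.32 against rod bipolar nuclei. Egr1, an activity-regulated factor, was above both, with 1.78 and 1.11. The heat shock cochaperone gene Dnaja1 was below both, with -1.03 and -0.39. Of 13 mitochondrially encoded genes 8 were lower than in rod bipolar nuclei and none higher, with a median log2FC of -0.18. These genes were chosen from their lists after their values were seen.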
